A study of Mus musculus with 48 samples.

Results

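Hippocampal tissue of the Cornus Ammonis (CA) was compared between 7 Glu-CB1-KO and 5 CB1-WT mice that had explored an open field arena for 5 minutes. These 12 RNA-seq libraries were chosen from the 48 of the study by line, genotype and state in their labels, and each library is 1 male mouse. The labels give the strain nex-cre x CB1f/f and an age of 8 weeks for both genotypes, and the CB1-WT mice were littermates of the mutants. All mice thus come from a cross that carries the floxed CB1 gene, in which the mutants express Cre recombinase under the regulatory elements of *Nex* (nex1), a gene of glutamatergic neurons of the dorsal telencephalon, while interneurons keep CB1. Dentate gyrus was removed at dissection. According to the methods of the study, mice were picked for sequencing by behavior and by RT-qPCR of *Arc*, *Adgrl2* (*Lphn2*) and *Tdo2*, so these 3 genes took part in the choice of the libraries. The comparison asks which transcripts differ, after a mild stimulus, between these mutants and their littermates. CB1 loss and Cre expression go together in the mutants. The 12 libraries of the same line in the basal state and the 12 open field libraries of the GABA-CB1 line serve for comparison. Neither set shares a library with those above. GABA-CB1 mutants lose CB1 from GABAergic neurons through Cre driven by *Dlx5/6* elements. By the labels, the GABA-CB1 open field libraries are 7 CB1-WT and 5 GABA-CB1-KO, whereas the study states 5 and 7. The labels were followed.

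CB1, encoded by *Cnr1*, is a G protein-coupled receptor of axon terminals. Endocannabinoids made by the postsynaptic cell on strong activation travel back to the terminal, where CB1 lowers transmitter release. In the hippocampus the receptor is dense on the terminals of cholecystokinin interneurons and sparse, but functional, on those of glutamatergic pyramidal neurons, where it limits excitation. Exploration of a new arena activates hippocampal neurons and induces immediate early genes such as *Arc* and *Fosb*.

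The 12 libraries held 27482417 to 32437819 counted reads (median 30093007) on 17662 to 17864 genes. Levels are given below as CPM, the count of a gene scaled to the size of its library, with TMM, a normalization that equates libraries on the bulk of their genes. Marker lists were summed to describe the tissue. No other tissue was at hand for reference, so the sums do not test the label. Summed CA1 pyramidal markers ran from 2478 to 2863 CPM in Glu-CB1-KO libraries and from 2287 to 2711 CPM in CB1-WT libraries, and summed CA3 and CA2 markers from 3646 to 3979 CPM in Glu-CB1-KO libraries and from 3645 to 3957 CPM in CB1-WT libraries. Dentate granule and mossy cell markers, of the part that was removed, ran from 1030.0 to 1358 CPM in Glu-CB1-KO libraries and from 1023 to 1222 CPM in CB1-WT libraries. These sums cannot say how much dentate tissue remained. On the first principal component of the 500 most variable genes (27.4% of the variance), the genotypes were not separated (exact permutation p = 0.658). It followed the animal numbers of the labels instead, a gap seen after the data were examined: the 6 mice numbered under 850 (4 Glu-CB1-KO, 2 CB1-WT) scored −11.7 to 2.29, and the 6 numbered over 850 (3 of each) scored 1.56 to 11.2. On the second component (18.2% of the variance), all 7 Glu-CB1-KO libraries (0.367 to 7.42) lay above all 5 CB1-WT libraries (−14.1 to −0.0134; exact permutation p = 0.00126, the smallest that relabelling 12 libraries allows; 0.00253 adjusted over both components).

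The second component was led by pituitary hormone genes, *Gh* (growth hormone), *Prl* (prolactin), *Cga* and *Pomc*, beside *Gm3279*. Their summed level was 13.3 to 143 CPM (median 77.6) in Glu-CB1-KO libraries and 23.5, 63.6, 21.7, 0.648 and 1.65 CPM in CB1-WT replicates 1 to 5. The groups overlap, and CB1-WT replicates 4 and 5 are lowest. None of the 4 genes passed the test (*Gh*, log2 fold change 1.92 ± 0.79 SE, adjusted p = 0.607). With these 4 genes removed, the second component (12.8% of the variance) separated the genotypes with the same exact permutation p (0.00126). Without CB1-WT replicates 4 and 5 edgeR called 4 genes, against 41 with them. Fewer CB1-WT libraries lower the power of the test by themselves. The log2 fold changes of most of the 41 genes became smaller in size, as from 0.33 to 0.22 for *Fezf2*. Fewer became larger, as from 0.67 to 0.79 for *Col23a1*. That of *Serpina3g* was 0.92 with and 0.95 without the 2 libraries. The library numbers in the column names run from 14 to 18 for CB1-WT and are 13 and 19 to 24 for Glu-CB1-KO, so that genotype and library order cannot be told apart.

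**Figure D1:**
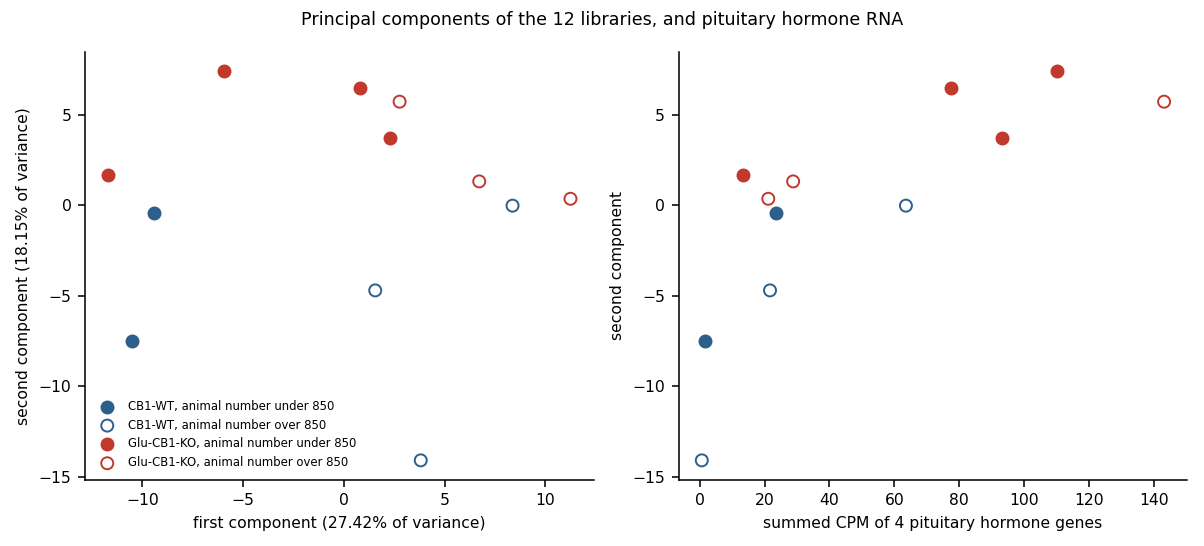
First and second principal component of log2 CPM over the 500 most variable genes for the 12 open field libraries of the Glu-CB1 line (left), and the second component against the summed CPM of 4 pituitary hormone genes (right), 1 point per library, colored by genotype and filled by animal number. Glu-CB1-KO libraries lie above CB1-WT libraries on the second component (0.367 to 7.42 against −14.1 to −0.0134), while on the first the libraries spread by the range of their animal numbers.

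Differential expression analysis with edgeR's quasi-likelihood test over 15078 genes found 41 differentially expressed genes (DEGs) at a Benjamini-Hochberg adjusted p under 0.05, which is 0.272% of the genes tested. At this share a gene list of the sizes used below would hold few calls or none, so that a list without a call does not stand apart. Of the DEGs, 22 (0.146%) had a higher and 19 (0.126%) a lower level in the mutants. The changes were mostly small: absolute log2 fold changes ran from 0.18 to 3.03, with a median of 0.51 for the higher and −0.42 for the lower genes. For 39 of the 41 DEGs no Glu-CB1-KO library overlapped any CB1-WT library (111 of all genes tested, 0.736%), the exceptions being *Zcchc12* and *Galnt9*. At an unadjusted p under 0.05 stood 1051 genes (6.97%). Over all genes, 7296 (48.4%) were higher and 7782 lower, with a median log2 fold change of −0.0025. The largest increase was that of *Gm3279*, followed by *Dlk1*, *Serpina3g*, *Tmem91*, *Bmp3*, *Col23a1*, *Gpx3*, *Crhbp*, *Syt9*, *Npy*, *Hs3st2* and *Hrh3*. The lower genes were led by *B230110G15Rik*, *Wnt11*, *Neurod6*, *Umodl1*, *Cnr1* and *Ntsr1*.

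The number of DEGs depended on single libraries. With 1 library left out at a time, edgeR called 14 genes without CB1-WT replicate 3, 4 or 5, 15 without Glu-CB1-KO replicate 1, 17, 18, 24 and 26 without Glu-CB1-KO replicates 2 to 5, 30 and 28 without replicates 6 and 7, and 48 and 43 without CB1-WT replicates 1 and 2. The genes called in each of these 12 fits were *Cnr1*, *Neurod6*, *Gm3279*, *Adgra1*, *B230110G15Rik*, *Col11a1*, *Klk8*, *Lpl*, *Lrrc10b*, *Prkcd*, *Serpina3g* and *Syt9*. Of these, *Cnr1* and *Neurod6* were also called in all 15 alternatives that changed the fit or took a subset of the mice. *Gm3279* was called in the 14 that tested it, as the filter of at least 10 counts in every library removed it. The other 9 genes were called in 8 to 11 of the 15. At the threshold, *Galnt9*, *Hs3st2*, *Col23a1*, *Cdk18* and *Tcerg1l* passed with an adjusted p of 0.0492, while *Pdlim1* (0.0544), *Sstr1* (0.0544) and *Sst* (0.0574) stayed just outside. Within the mice numbered under 850 edgeR called 10 genes and within those over 850 it called 4. All 41 DEGs kept their sign in both ranges of animal numbers, which the lack of overlap fixes for 39 of them.

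**Figure D2:**
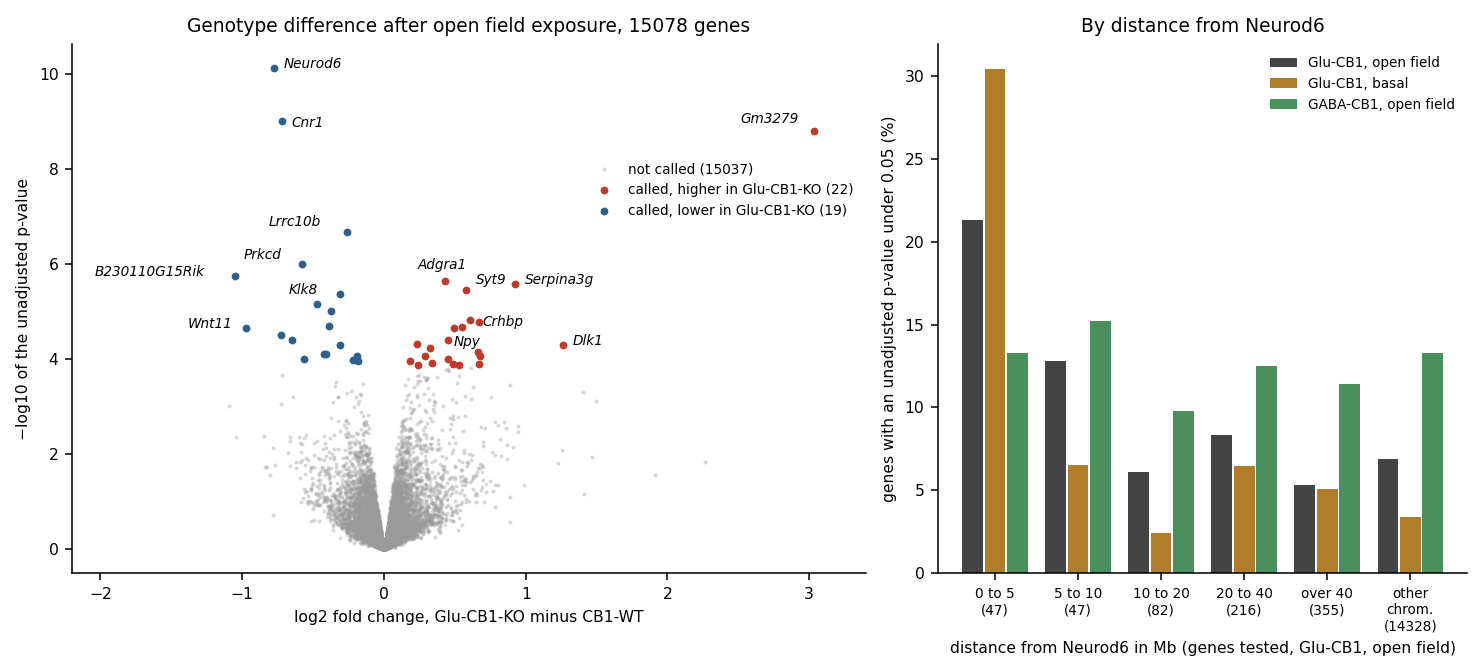
Left, log2 fold change of Glu-CB1-KO against CB1-WT after the open field (x axis) and −log10 of the unadjusted p-value of edgeR's quasi-likelihood test (y axis), 1 point per gene, with the 22 genes called higher in red and the 19 called lower in blue. Right, percentage of genes with an unadjusted p under 0.05 by distance from *Neurod6* on chromosome 6, without *Neurod6* and *Gm3279*, in 3 genotype comparisons; within 5 Mb it was 21.3% for Glu-CB1 after the open field, 30.4% for Glu-CB1 in the basal state and 13.3% for GABA-CB1 after the open field.

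The targeted gene comes first. *Cnr1* (chr4:33924632-33948831) was at 339, 397, 369.6, 389 and 329.7 CPM in the 5 CB1-WT libraries and at 203 to 250.3 CPM (median 220.5) in the 7 Glu-CB1-KO libraries. Every mutant library lay below every CB1-WT library, and none was near 0. The mean fell from 365 ± 29.6 CPM (SD, n = 5) to 221 ± 15.3 CPM (SD, n = 7), a log2 fold change of −0.72 ± 0.055 SE (adjusted p = 7.59e-06, edgeR with Benjamini-Hochberg adjustment). In bulk tissue, fewer cells that express a gene and less RNA per cell cannot be told apart. *Neurod6* (chr6:55677819-55681263, minus strand), another name of *Nex* and a basic helix-loop-helix transcription factor of pyramidal neurons, was at 346, 350.3, 339, 399 and 352 CPM in CB1-WT libraries and 198 to 239 CPM (median 203) in Glu-CB1-KO libraries. Its groups were further apart than those of *Cnr1*, with CB1-WT replicate 4 and Glu-CB1-KO replicate 5 above the rest of their groups (log2 fold change −0.78 ± 0.049 SE, adjusted p = 1.15e-06). Within the mice numbered under and over 850, the log2 fold changes were −0.66 and −0.72 for *Cnr1* and −0.77 and −0.77 for *Neurod6*.

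*Gm3279*, a predicted gene that begins 3308 bp from *Neurod6* on the opposite strand (chr6:55684571-55694574), was at 0.378, 0.457, 0.328, 0.227 and 0.168 CPM in CB1-WT libraries and 1.75 to 3.19 CPM (median 2.73) in Glu-CB1-KO libraries. The level in mutants was low, but the lowest mutant library was several fold above the highest CB1-WT library (log2 fold change 3.03 ± 0.24 SE, adjusted p = 8.14e-06). As background, in the Nex-Cre allele the Cre sequence sits in the *Neurod6* gene. The mutants carry this allele by design, and the CB1-WT littermates are taken to lack it although the labels give both the same strain name. The allele, the lower *Neurod6* level and the loss of CB1 therefore cannot be told apart, at this locus or for DEGs elsewhere. The 250 bases before the RefSeq start of both genes (GRCm38.p6, which is mm10) are shown because these starts point away from each other and lie within the same locus, with matches to the E-box CANNTG, the motif class bound by basic helix-loop-helix factors, in capitals. *Neurod6* has 2 matches, with the first base 162 and 132 bases before the start, and *Gm3279* has 0.

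Both are printed 5′ to 3′ on the strand of the gene.
Neurod6, chr6:55681264-55681513, minus strand: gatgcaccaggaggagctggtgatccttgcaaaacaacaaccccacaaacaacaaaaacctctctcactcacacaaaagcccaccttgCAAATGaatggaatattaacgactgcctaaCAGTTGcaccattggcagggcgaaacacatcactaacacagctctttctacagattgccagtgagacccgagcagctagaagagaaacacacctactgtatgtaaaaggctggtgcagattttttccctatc
Gm3279, chr6:55684321-55684570, plus strand: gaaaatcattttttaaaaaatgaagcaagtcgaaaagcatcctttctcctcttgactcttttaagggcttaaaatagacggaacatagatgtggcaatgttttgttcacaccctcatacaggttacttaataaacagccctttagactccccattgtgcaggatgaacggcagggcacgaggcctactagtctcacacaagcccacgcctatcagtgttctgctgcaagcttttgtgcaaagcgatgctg

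Within 5 Mb of *Neurod6*, 48 other genes were tested. *Gm3279* was the 1 gene called, and 11 of the 48 (22.9%) had an unadjusted p under 0.05, against 6.97% of all genes tested. Of these 11, 5 were higher (3.91% of all genes at this p) and 6 lower (3.06%), and 7 also had an unadjusted p under 0.05 with the same sign in the separate basal libraries. Beside *Gm3279* the lower genes were *Pyurf* (log2 fold change −0.24 ± 0.053, unadjusted p = 0.000482), *Fkbp9*, a peptidyl-prolyl isomerase of the endoplasmic reticulum (−0.26 ± 0.059, unadjusted p = 0.000527), *Inmt*, a methyltransferase (−0.85 ± 0.25, unadjusted p = 0.00416), *Creb5*, a transcription factor (−0.41 ± 0.13, unadjusted p = 0.00728; 0.18 in the basal libraries), *C530044C16Rik* (−0.56 ± 0.21, unadjusted p = 0.0168; 0.081 in the basal libraries) and *Pde1c*, a phosphodiesterase of cyclic nucleotides (−0.22 ± 0.097, unadjusted p = 0.0402). The higher genes were *Nap1l5* (0.12 ± 0.035, unadjusted p = 0.00313), *Prr15* (0.82 ± 0.25, unadjusted p = 0.00480), *6430584L05Rik* (0.49 ± 0.16, unadjusted p = 0.00822) and *Nod1*, an innate immune receptor (0.22 ± 0.086, unadjusted p = 0.0230). Without *Neurod6* and *Gm3279*, the share with an unadjusted p under 0.05 was 10 of 47 (21.3%) at 0 to 5 Mb, 12.8% at 5 to 10 Mb, 6.1% at 10 to 20 Mb, 8.33% at 20 to 40 Mb, 5.35% further along chromosome 6 and 6.92% on other chromosomes. In the basal state of the same line the share within 5 Mb was 14 of 46 (30.4%, against 3.4% on other chromosomes), and in the GABA-CB1 line after the open field it was 6 of 45 (13.3%, the same as on other chromosomes). These distance ranges were chosen after the window had been seen. Around *Cnr1*, 2 of 26 genes within 5 Mb (7.69%) had an unadjusted p under 0.05 and 0 were called. Chromosome 6, with 4.97% of the genes tested, held 5 of the 41 DEGs, namely *Neurod6*, *Gm3279*, *Npy*, *Sema4f* and *B230110G15Rik*. *Npy* lies 5.85 Mb from *Neurod6*. The part of the locus in these values was not tested.

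*Crhbp* and *Npy*, members of the somatostatin interneuron marker list though not only of that list, were higher in Glu-CB1-KO mice. *Sst* itself missed the threshold. *Crhbp* (chr13:95431376-95444831) encodes the secreted protein that binds corticotropin-releasing hormone and limits its action. It was at 21.9, 24.5, 19.02, 18.6 and 15.4 CPM in CB1-WT libraries and 26.7 to 35.02 CPM (median 29.9) in Glu-CB1-KO libraries. The groups did not overlap, and CB1-WT replicate 5 was lowest (log2 fold change 0.61 ± 0.098 SE, adjusted p = 0.0174). *Npy* (chr6:49822729-49829505), the precursor of neuropeptide Y, was at 25.4, 32.7, 28.3, 23.02 and 21.1 CPM in CB1-WT libraries and 33.3 to 42.01 CPM (median 38.8) in Glu-CB1-KO libraries. Here the highest CB1-WT library, replicate 2, lay just under the lowest mutant library (log2 fold change 0.55 ± 0.090 SE, adjusted p = 0.0185). *Sst* (chr16), the somatostatin precursor, was at 89.03, 113, 89.4, 77.1 and 69.4 CPM in CB1-WT libraries and 108 to 126 CPM (median 122) in Glu-CB1-KO libraries. CB1-WT replicate 2 lay within the range of the mutants, and *Sst* did not pass the test (log2 fold change 0.44 ± 0.089 SE, adjusted p = 0.0574). *Crhbp* lost its call without CB1-WT replicate 3 (adjusted p = 0.0597) or replicate 4 (0.0647), and *Npy* without CB1-WT replicate 4 (0.0762), replicate 5 (0.0508) or Glu-CB1-KO replicate 1 (0.0569), whereas *Sst* gained one without CB1-WT replicate 2 (adjusted p = 0.00142). Within the mice numbered under and over 850, the log2 fold changes were 0.75 and 0.48 for *Crhbp*, 0.73 and 0.42 for *Npy* and 0.58 and 0.35 for *Sst*.

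Of 18 somatostatin interneuron markers tested, 17 were higher in Glu-CB1-KO mice by estimate, against 48.4% of all genes tested. *Crhbp* and *Npy* passed the test, with 0.146% of all genes called higher. The median log2 fold change of the list was 0.13 (all genes tested, −0.0025). Its summed level ran from 925 to 1028 CPM in Glu-CB1-KO libraries and from 817 to 949.9 CPM in CB1-WT libraries. Among the further members, *Rab3b*, a vesicle GTPase of presynaptic terminals, stood at 32.5 to 38.9 CPM in CB1-WT libraries and 38.96 to 48.02 CPM in mutants (0.28 ± 0.059, adjusted p = 0.0698). *Lhx6*, the transcription factor of interneurons born in the medial ganglionic eminence, had a log2 fold change of 0.14 ± 0.057, adjusted p = 0.595. *Crhbp*, *Npy*, *Sst* and *Rab3b* are genes that the study names from these same libraries, so their presence on the list is not independent evidence of its direction. Of 13 parvalbumin interneuron markers 8 were higher, of 23 CCK, VIP and other interneuron markers 13, and of 17 genes of all interneurons 11, with no gene called in these lists except *Cnr1*. *Gad1*, the main GABA synthesizing enzyme, had a log2 fold change of 0.14 ± 0.039, adjusted p = 0.231, at 323 to 374 CPM in CB1-WT libraries and 382 to 424 CPM in mutants. The pituitary hormone RNA given above was lowest in CB1-WT replicates 4 and 5, which were also lowest in *Sst*, *Npy* and *Crhbp*. Without these 2 libraries the log2 fold changes were 0.48 for *Crhbp* (adjusted p = 0.177), 0.41 for *Npy* (0.193) and 0.29 for *Sst* (0.468), so that neither DEG kept its call by edgeR's test.

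**Figure D3:**
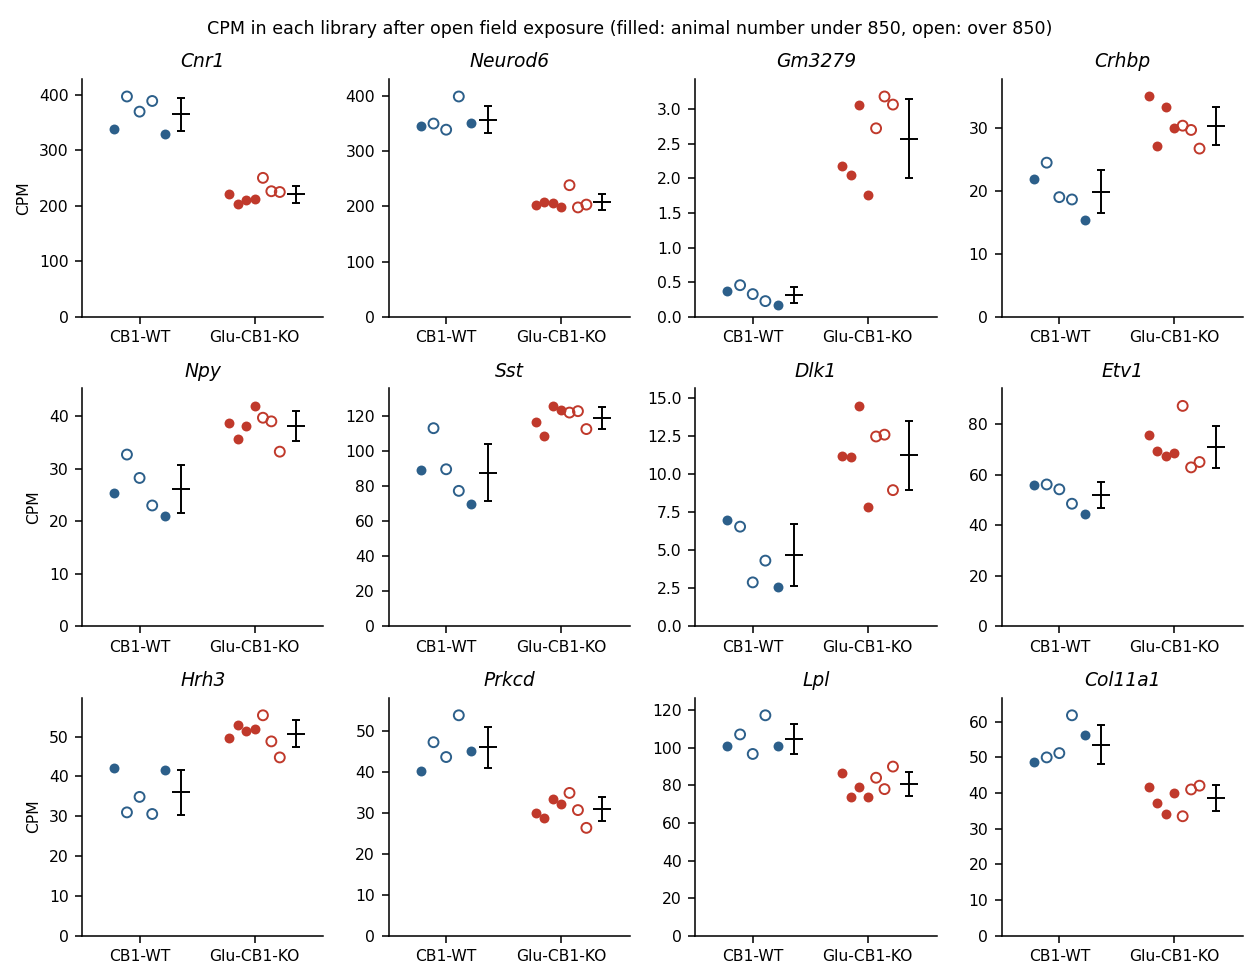
TMM-normalized CPM of named genes in each of the 5 CB1-WT and 7 Glu-CB1-KO libraries after the open field, with the mean and SD of each group; each panel has its own y axis from 0. *Cnr1* and *Neurod6* are lower in every mutant library, *Gm3279*, *Crhbp* and *Npy* are higher in every mutant library, and the groups of *Sst* overlap through 1 CB1-WT library.

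The sequences before the starts of *Sst*, *Crhbp* and *Npy* are shown because the cyclic AMP response element (CRE, TGACGTCA) of the somatostatin promoter is the classical site of an activity-driven transcription factor, CREB, and these 3 genes were studied together. Capitals mark the CRE or its half-site TGACG on either strand. *Sst* holds 1 complete CRE with its first base 48 bases before the start, in which half-sites on both strands overlap, *Crhbp* holds 1 half-site at 64 bases, on the other strand, and *Npy* holds none in this window.

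The coordinates are those of GRCm38.p6, and each sequence is on the strand of its gene.
Sst, chr16:23890845-23891094, minus strand: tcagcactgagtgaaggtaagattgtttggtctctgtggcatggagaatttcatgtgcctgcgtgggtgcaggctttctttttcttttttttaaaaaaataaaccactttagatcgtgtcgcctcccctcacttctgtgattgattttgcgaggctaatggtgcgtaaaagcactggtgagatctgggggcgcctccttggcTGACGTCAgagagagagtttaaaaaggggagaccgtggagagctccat
Crhbp, chr13:95444832-95445081, minus strand: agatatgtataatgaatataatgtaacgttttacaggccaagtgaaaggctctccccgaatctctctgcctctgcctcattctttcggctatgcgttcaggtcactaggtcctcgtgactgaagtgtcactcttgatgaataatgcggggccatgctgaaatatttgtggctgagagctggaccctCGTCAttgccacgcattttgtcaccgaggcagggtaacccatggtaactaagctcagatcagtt
Npy, chr6:49822460-49822709, plus strand: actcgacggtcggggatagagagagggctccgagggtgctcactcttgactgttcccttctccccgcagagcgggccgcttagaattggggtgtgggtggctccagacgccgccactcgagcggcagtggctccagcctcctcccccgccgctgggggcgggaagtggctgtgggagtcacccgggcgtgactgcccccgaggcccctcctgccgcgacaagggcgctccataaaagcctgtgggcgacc

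RefSeq upstream sequences were found for 11376 of the 15078 genes tested, for 20 of the 22 DEGs that were higher and for 14 of the 19 that were lower. A CRE was present in 1 of 20 higher DEGs (*Hs3st2*), in 0 of 14 lower DEGs and in 2.7% of all matched genes. The half-site occurred in 5 of 20, 4 of 14 and 26.2%. The E-box CANNTG occurred in 8 of 20, 10 of 14 and 57.6%, and its form CAGATG, which CANNTG includes, in 2 of 20, 2 of 14 and 10.3%. Both strands were searched, and a match is a description of letters, not of a site that is bound.

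Neuropeptides act through G protein-coupled receptors and modulate rather than carry fast transmission. Of 29 neuropeptide precursors tested, 20 were higher by estimate (48.4% of all genes). *Npy* was called, with 0.146% of all genes called higher. The median log2 fold change of the list was 0.20 (0.10 in the mice numbered under 850). Summed, the precursors ran from 465 to 534.8 CPM in Glu-CB1-KO libraries and from 399.6 to 483 CPM in CB1-WT libraries. *Grp*, the precursor of gastrin-releasing peptide, was at 15.97, 10.5, 9.95, 8.97 and 10.5 CPM in CB1-WT libraries and 13.8 to 21.3 CPM (median 15.6) in mutants, where CB1-WT replicate 1 reached into the mutant range (log2 fold change 0.57 ± 0.13 SE, adjusted p = 0.113). *Tac1*, the substance P precursor, was at 5.32, 5.83, 5.76, 3.37 and 2.76 CPM in CB1-WT libraries and 5.74 to 7.71 CPM (median 6.63) in mutants and likewise did not pass (log2 fold change 0.56 ± 0.16 SE, adjusted p = 0.282). Of 22 genes of the stress hormone system 14 were higher by estimate, and of 20 granins and peptide processing genes 11, *Crhbp* being the 1 gene called in both lists.

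Among 27 neuropeptide receptors, 15 were higher by estimate and *Ntsr1*, a neurotensin receptor, was called lower, against 48.4% and 0.126% of all genes. It was at 4.44, 4.71, 4.48, 4.08 and 4.88 CPM in CB1-WT libraries and 2.401 to 4.03 CPM (median 2.83) in mutants. The groups came close through Glu-CB1-KO replicate 3 alone (log2 fold change −0.65 ± 0.11 SE, adjusted p = 0.0291). The somatostatin receptor *Sstr1* (13.3 to 16.3 CPM in CB1-WT, 17.3 to 25.5 CPM in mutants, 0.45 ± 0.091, adjusted p = 0.0544) and the presynaptic neuropeptide Y receptor *Npy2r* (92.1 to 123 CPM in CB1-WT, 73.8 to 96.1 CPM in mutants, −0.33 ± 0.076, adjusted p = 0.113) had opposite signs and did not pass. Of 34 adrenergic and other amine receptors, 26 were higher by estimate with a median log2 fold change of 0.070, and *Hrh3* was called higher. Over all genes 48.4% were higher and 0.146% were called higher. *Hrh3*, the histamine receptor that restrains the release of histamine and other transmitters, was at 42.1, 30.97, 34.9, 30.6 and 41.7 CPM in CB1-WT libraries and 44.8 to 55.4 CPM (median 51.3) in mutants. All mutant libraries were above all CB1-WT libraries (log2 fold change 0.49 ± 0.082 SE, adjusted p = 0.0185). The log2 fold change was 0.29 in the mice numbered under 850, which include CB1-WT replicates 1 and 5 with the highest CB1-WT values, and 0.63 in those over 850. *Adra2a*, the alpha-2A adrenergic receptor, did not overlap between the groups either (6.83 to 10.7 against 11.3 to 13.7 CPM) but missed the threshold (0.46 ± 0.093, adjusted p = 0.0597). Over the fits that left out 1 library, the call of *Hrh3* held in 7 of 12 (highest adjusted p = 0.0668, without CB1-WT replicate 4) and that of *Ntsr1* in 3 of 12 (highest adjusted p = 0.0913, without CB1-WT replicate 5).

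The lists of ion channels and fast transmission held 1 DEG, with 0.272% of all genes called. Of 65 potassium channel genes, 32 were higher and 33 lower by estimate, and 1 was called, *Kcns2*, a silent subunit that modifies Kv2 channels (50.1 to 56.2 CPM in CB1-WT, 44.97 to 47.6 CPM in mutants, −0.18 ± 0.035, adjusted p = 0.0466). This call was lost in all 12 fits that left out 1 library (highest adjusted p = 0.112, without CB1-WT replicate 4). *Kcnn2*, a small conductance calcium-activated channel named by the study, was at 71.6, 66.96, 65.9, 66.9 and 68.05 CPM in CB1-WT libraries and 72.4 to 85.05 CPM (median 76.2) in mutants. The groups did not overlap, yet it did not pass (log2 fold change 0.18 ± 0.040 SE, adjusted p = 0.109). Of 37 glutamate receptor genes 16 were higher by estimate, of 24 GABA receptor and synthesis genes 16, of 27 sodium, calcium and HCN channels 11, and 0 were called in these 3 lists. Transmitter release genes (40 tested, 26 higher) and axon guidance and adhesion genes (50 tested, 24 higher) held no call either. *Grin2b*, a subunit of the NMDA receptor, spread from 36.7 to 142 CPM in CB1-WT and from 34.1 to 129 CPM in mutants (−0.24 ± 0.37, adjusted p = 0.999).

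Markers of ventral hippocampus and of the subiculum and cortex leaned towards higher values in Glu-CB1-KO mice, by estimate also in the basal libraries (given below). Of 27 ventral markers 24 were higher by estimate (median log2 fold change 0.18), and of 26 markers of subiculum and cortex 23 (median 0.25), against 48.4% of all genes tested, and 2 were called higher in each list, against 0.146% of all genes. Summed ventral markers ran from 1222 to 1394 CPM in Glu-CB1-KO libraries and from 1058 to 1237 CPM in CB1-WT libraries, and those of subiculum and cortex from 738 to 809 CPM in Glu-CB1-KO libraries and from 621 to 752 CPM in CB1-WT libraries. *Dlk1*, a Notch-like secreted and membrane protein, was at 6.99, 6.54, 2.88, 4.31 and 2.56 CPM in CB1-WT libraries and 7.82 to 14.5 CPM (median 11.2) in mutants. Levels in CB1-WT replicates 1 and 2 came close to the lowest mutant (log2 fold change 1.26 ± 0.23 SE, adjusted p = 0.0322). *Etv1*, a transcription factor of the ETS family present in both lists, was at 55.8, 56.2, 54.2, 48.5 and 44.4 CPM in CB1-WT libraries and 62.9 to 87.3 CPM (median 68.5) in mutants (log2 fold change 0.45 ± 0.080 SE, adjusted p = 0.0291). *Fezf2*, a zinc finger factor of subcortically projecting neurons, was at 35.7, 34.3, 34.4, 28.8 and 28.2 CPM in CB1-WT libraries and 39.4 to 43.5 CPM (median 39.7) in mutants (log2 fold change 0.33 ± 0.060 SE, adjusted p = 0.0361). Neither gene overlapped between the groups, and CB1-WT replicates 4 and 5 were lowest in both. Over the fits that left out 1 library, the call of *Dlk1* held in 4 of 12 (highest adjusted p = 0.112, without CB1-WT replicate 4), of *Etv1* in 6 of 12 (highest adjusted p = 0.105, without CB1-WT replicate 4) and of *Fezf2* in 3 of 12 (highest adjusted p = 0.112, without CB1-WT replicate 4). *Nov* (0.38 ± 0.13, adjusted p = 0.394) and *Ly6g6e* (0.89 ± 0.19, adjusted p = 0.0824) were members that did not pass. The median over ventral markers was 0.28 without CB1-WT replicate 2 and 0.31 in the mice numbered over 850.

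Of 21 thalamus and habenula markers, 9 were higher and 12 lower by estimate (median log2 fold change −0.034). Called lower were 2, against 0.126% of all genes. *Prkcd*, protein kinase C delta, was at 40.4, 47.4, 43.7, 53.9 and 45.1 CPM in CB1-WT libraries and 26.4 to 34.9 CPM (median 30.7) in mutants. The highest mutant library stayed below the lowest CB1-WT library (log2 fold change −0.58 ± 0.074 SE, adjusted p = 0.00309), and the call held in 12 of 12 left-out fits and in 9 of 15 alternatives (highest adjusted p = 0.161, with the replicate number as a block). *Plekhg1* was at 36.1, 31.3, 44.4, 36.1 and 33.2 CPM in CB1-WT libraries and 23.9 to 30.8 CPM (median 27.02) in mutants, where CB1-WT replicate 2 nearly met the highest mutant (log2 fold change −0.42 ± 0.079 SE, adjusted p = 0.0424; held in 2 of 12, highest adjusted p = 0.112 without CB1-WT replicate 4). *Slc17a6*, the vesicular glutamate transporter of thalamic and subicular neurons, had a positive estimate and did not pass (3.302 to 13.99 CPM in CB1-WT, 7.05 to 14.8 CPM in mutants, 0.66 ± 0.26, adjusted p = 0.576). Of 28 CA3 and CA2 markers 11 were higher by estimate and *Iyd*, iodotyrosine deiodinase, was called lower (6.997 to 10.3 CPM in CB1-WT, 4.76 to 6.51 CPM in mutants, −0.56 ± 0.11, adjusted p = 0.0463; held in 2 of 12, highest adjusted p = 0.142 without CB1-WT replicate 4). Of 18 CA1 markers 13, of 22 dentate markers 9, of 15 dorsal hippocampus markers 7 and of 19 septum, striatum and amygdala markers 12 were higher by estimate, and *Dlk1* was the 1 gene called among these. How the dissection sampled the axis of the hippocampus and its neighbors was not tested.

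**Figure D4:**
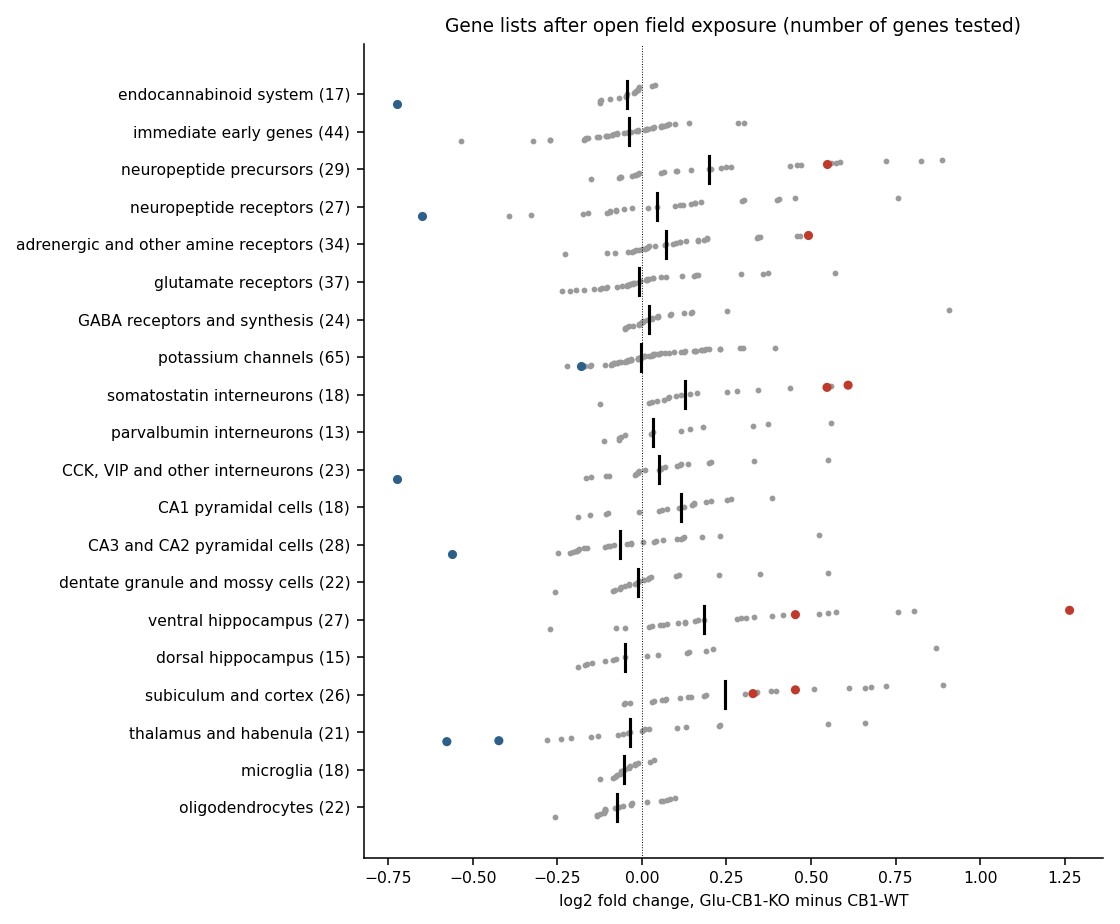
Log2 fold change of Glu-CB1-KO against CB1-WT after the open field for each tested member of the gene lists, 1 point per gene with the median of each list; genes called higher are red and genes called lower blue. Somatostatin interneuron (median 0.13), ventral hippocampus (0.18) and subiculum and cortex (0.25) markers lie to the right of the median of all genes (−0.0025), with few members called.

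The remaining DEGs are on no gene list, and they are given in an order set after their values were seen. *Lpl*, lipoprotein lipase, was at 101, 107, 96.8, 117 and 101 CPM in CB1-WT libraries and 73.6 to 90.1 CPM (median 79.4) in mutants (log2 fold change −0.37 ± 0.058 SE, adjusted p = 0.0124). *Col11a1*, a fibrillar collagen, was at 48.7, 50.02, 51.2, 61.8 and 56.2 CPM in CB1-WT libraries and 33.5 to 42.1 CPM (median 40.2) in mutants (log2 fold change −0.48 ± 0.071 SE, adjusted p = 0.00969). Both were lower in every mutant library and kept their call in 12 of 12 left-out fits, *Lpl* in 9 and *Col11a1* in 10 of 15 alternatives (highest adjusted p 0.490 and 0.437, in mice numbered over 850). *Klk8* (neuropsin), an extracellular serine protease that cleaves adhesion molecules at synapses, was at 18.2, 17.5, 16.4, 17.2 and 18.1 CPM in CB1-WT libraries and 13.3 to 14.5 CPM (median 14.3) in mutants. Its values were tight within both groups (log2 fold change −0.31 ± 0.045 SE, adjusted p = 0.00643; held in 12 of 12 left-out fits and 8 of 15 alternatives, highest adjusted p = 0.8395 in mice numbered over 850). *Serpina3g*, a serine protease inhibitor of a family with near-identical copies whose reads may be split between them, was at 3.09, 3.97, 2.15, 3.497 and 2.89 CPM in CB1-WT libraries and 5.02 to 7.17 CPM (median 6.02) in mutants (log2 fold change 0.92 ± 0.13 SE, adjusted p = 0.00493; held in 12 of 12 left-out fits and 8 of 15 alternatives, highest adjusted p = 0.473 in mice numbered over 850). The growth factor *Bmp3* was higher (1.73 to 2.46 against 2.97 to 3.998 CPM, 0.67 ± 0.11, adjusted p = 0.0177; held in 10 of 12, highest adjusted p = 0.0665 without CB1-WT replicate 5) and the ligand *Wnt11* lower (0.945 to 1.14 against 0.379 to 0.740 CPM, −0.97 ± 0.16, adjusted p = 0.0185; held in 7 of 12, highest adjusted p = 0.0787 without CB1-WT replicate 5). Also higher were *Gpx3*, a secreted glutathione peroxidase (0.66 ± 0.12, adjusted p = 0.0420), *Col23a1*, a membrane collagen (0.67 ± 0.13, adjusted p = 0.0492), and *Hs3st2*, which sulfates heparan chains (0.53 ± 0.10, adjusted p = 0.0492). The call of *Gpx3* held in 3 of 12 (highest adjusted p = 0.131, without CB1-WT replicate 4), that of *Col23a1* in 1 of 12 (highest adjusted p = 0.135, without CB1-WT replicate 3) and that of *Hs3st2* in 2 of 12 (highest adjusted p = 0.177, without CB1-WT replicate 4).

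*Syt9*, a calcium sensor of vesicle fusion, was at 5.54, 6.43, 5.43, 4.82 and 4.74 CPM in CB1-WT libraries and 7.44 to 8.69 CPM (median 7.88) in mutants (log2 fold change 0.58 ± 0.082 SE, adjusted p = 0.00604). *Adgra1*, an adhesion G protein-coupled receptor, was at 48.8, 54.5, 51.00, 44.9 and 42.4 CPM in CB1-WT libraries and 60.00 to 69.03 CPM (median 63.6) in mutants (log2 fold change 0.43 ± 0.059 SE, adjusted p = 0.00490). Neither overlapped between the groups, and both held in 12 of 12 left-out fits, *Syt9* in 8 of 15 alternatives (highest adjusted p = 0.669, in mice numbered over 850) and *Adgra1* in 9 of 15 (0.225, with the replicate number as a block). *Lrrc10b*, a leucine-rich repeat protein, was at 53.4, 55.01, 53.04, 54.8 and 53.6 CPM in CB1-WT libraries and 43.5 to 45.7 CPM (median 45.1) in mutants, a small but tight difference (log2 fold change −0.26 ± 0.030 SE, adjusted p = 0.000803; held in 12 of 12 left-out fits and 9 of 15 alternatives, highest adjusted p = 0.548 with the 24 libraries of the line in one fit). *B230110G15Rik*, at 1.83 to 3.09 CPM in CB1-WT libraries and 1.05 to 1.63 CPM in mutants, had the largest decrease of all DEGs (−1.05 ± 0.14, adjusted p = 0.00445; held in 12 of 12 and 11 of 15, highest adjusted p = 0.7725 in mice numbered over 850). The adhesion molecule *Negr1* was higher (0.23 ± 0.041, adjusted p = 0.0322), while *Sema4f*, a transmembrane semaphorin (−0.19 ± 0.036, adjusted p = 0.0424), *Cpne5*, a calcium-dependent phospholipid-binding copine (−0.31 ± 0.056, adjusted p = 0.0322), and *Cd83*, an immunoglobulin superfamily protein (−0.39 ± 0.064, adjusted p = 0.0185), were lower. The other DEGs were *Tmem91*, *Tcerg1l*, *Scml4*, *Cdk18*, *Zcchc12*, *Galnt9* and *Ckmt1*, the mitochondrial creatine kinase, with log2 fold changes from 0.68 down to 0.18, and *Umodl1*, *Efcab6* and *Ano3*, with −0.73, −0.41 and −0.22. Of the last 14 genes named, *Cd83* held in 9 of 12 left-out fits, *Umodl1* in 8, *Negr1* in 5 and the rest in 1 to 3, with the highest adjusted p of each between 0.0784 and 0.191, which came without CB1-WT replicate 3, 4 or 5.

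Immediate early genes, which report recent neuronal activity, showed no genotype difference that passed the test: of 44 tested, 18 were higher and 26 lower by estimate, 0 were called (3 at an unadjusted p under 0.05), and the median log2 fold change was −0.037. Their summed level ran from 1440.0 to 1897 CPM in Glu-CB1-KO libraries and from 1352 to 2147 CPM in CB1-WT libraries. The study took tissue at a single time after the exposure, so a difference at another time was not measured. *Arc*, whose protein remodels synapses after activity and which took part in the choice of mice, was at 168, 109, 243, 115 and 97.8 CPM in CB1-WT libraries and 76.99 to 216 CPM (median 133) in mutants. It varied widely within each group (log2 fold change −0.089 ± 0.24 SE, adjusted p = 0.999). *Fosb*, a subunit of the AP-1 transcription factor, was at 12.00, 20.4, 18.7, 12.2 and 9.59 CPM in CB1-WT libraries and 11.2 to 24.6 CPM (median 12.9) in mutants (log2 fold change 0.058 ± 0.21 SE, adjusted p = 0.999). *Bdnf*, a neurotrophin, was at 57.1, 58.98, 60.4, 57.4 and 44.4 CPM in CB1-WT libraries and 47.5 to 56.9 CPM (median 53.5) in mutants (log2 fold change −0.073 ± 0.072 SE, adjusted p = 0.998). *Nr4a2*, an orphan nuclear receptor, was at 36.4 to 71.5 and 46.7 to 72.7 CPM (0.037 ± 0.16, adjusted p = 0.999). The groups overlapped for all 4 genes, for *Bdnf* through CB1-WT replicate 5 alone. Leaving out single libraries turned the sign of *Arc* (up to 0.17 without CB1-WT replicate 3), *Fosb* (down to −0.10 without Glu-CB1-KO replicate 6) and *Nr4a2* (down to −0.0781 without CB1-WT replicate 5).

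Other genes that the study names from this tissue were *Ldb2*, a LIM domain-binding cofactor, and *Sptb*, beta-spectrin of the membrane skeleton. *Ldb2* was at 38.5, 35.4, 31.8, 27.9 and 32.1 CPM in CB1-WT libraries and 35.9 to 49.5 CPM (median 40.9) in mutants and overlapped through CB1-WT replicate 1 (log2 fold change 0.35 ± 0.086 SE, adjusted p = 0.138). *Sptb* was at 351, 336, 345, 348 and 365 CPM in CB1-WT libraries and 274 to 331 CPM (median 309) in mutants, without overlap but also without passing (log2 fold change −0.17 ± 0.041 SE, adjusted p = 0.122). The CA marker *Adgrl2* (57.5 to 79.1 against 66.4 to 83.7 CPM, 0.12 ± 0.071, adjusted p = 0.882) and the dentate marker *Tdo2* (3.297 to 6.27 against 2.53 to 8.12 CPM, −0.062 ± 0.24, adjusted p = 0.999), both used to choose the mice, overlapped between genotypes. Of 17 genes of the endocannabinoid system 2 were higher and 15 lower by estimate, with *Cnr1* called and a median log2 fold change of −0.044. The summed level of the list ran from 1997 to 2130.0 CPM in Glu-CB1-KO libraries and from 2164 to 2349 CPM in CB1-WT libraries, and *Cnr1* is part of that sum. *Dagla*, which makes the endocannabinoid 2-arachidonoylglycerol, was at 215 to 238 CPM in CB1-WT and 189 to 217 CPM in mutants (−0.12 ± 0.040, adjusted p = 0.376), and *Faah*, which breaks down anandamide, at 178 to 199 and 159.7 to 189 CPM (−0.12 ± 0.042, adjusted p = 0.422).

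The lists of non-neuronal cell markers held no DEG, which at 0.272% of all genes called is no result about these cells. Of 18 microglia markers 2 were higher by estimate (median log2 fold change −0.053), of 22 oligodendrocyte markers 6 (−0.072), of 18 astrocyte markers 5 (−0.020), of 26 vascular and meningeal markers 12 (−0.0035) and of 18 choroid plexus and ependyma markers 13 (0.24). Summed microglia markers ran from 589 to 628 CPM in Glu-CB1-KO libraries and from 586 to 731 CPM in CB1-WT libraries, and choroid plexus and ependyma markers from 258 to 636 CPM in Glu-CB1-KO libraries and from 275 to 388 CPM in CB1-WT libraries, with Glu-CB1-KO replicate 4 highest. Of 10 blood markers, 6 were at 0 in every library.

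The same genotypes were compared in the basal state in 12 other mice, where edgeR called 3 of 15138 genes (0.0198%), *Cnr1* (log2 fold change −0.73 ± 0.055 SE), *Neurod6* (−0.66 ± 0.069) and *Gm3279* (3.34 ± 0.26). Of the 41 open field DEGs, 37 had the same sign in the basal libraries (20 of 22 higher, 17 of 19 lower), against 56.8% of all genes. Their median basal log2 fold change was 0.18 for the higher and −0.20 for the lower genes, and 15 had a basal unadjusted p under 0.05 with the same sign, against 3.57% of genes at that p in either direction. Close to the threshold in the basal state were *Npy* (0.42 ± 0.075, adjusted p = 0.149), *Sema4f* (−0.20 ± 0.036, adjusted p = 0.149) and *Plekhg1* (−0.33 ± 0.064, adjusted p = 0.268). *Bmp3* had the same estimate in both states (0.67 ± 0.19 in the basal state), *Crhbp* a smaller one (0.36 ± 0.12), and *Serpina3g* (0.0038 ± 0.31), *Syt9* (0.085 ± 0.21) and *Kcns2* (0.0025 ± 0.070) were near 0. By estimate, 21 of 26 subiculum and cortex markers were higher in basal mutants (median log2 fold change 0.18) and 18 of 27 ventral markers (0.071). So were 15 of 18 somatostatin interneuron markers (0.082) and 24 of 29 neuropeptide precursors (0.098), against 7490 of all 15138 genes. Of 44 immediate early genes 36 were higher in the basal state, against 18 after the open field.

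Whether the genotype difference changed with the open field was tested as an interaction over the 24 libraries of the line. Of 15355 genes 0 (0%) passed with edgeR and 0 with DESeq2, and 379 (2.47%) had an unadjusted p under 0.05, among them 12 of the 41 DEGs. A DEG of the open field libraries was thus not shown to differ from the basal state. This interaction holds the contrast that chose the DEGs, so the count of 12 and the order of DEGs by its p are a description. Lowest in p among the DEGs was *Klk8*, with a log2 fold change of 0.11 ± 0.095 SE in basal libraries and −0.31 ± 0.045 in open field libraries (interaction −0.42 ± 0.11, unadjusted p = 0.000624). Further low p-values were those of *Ncf4* (0.87 and −0.24, unadjusted p = 0.000350), a subunit of the phagocyte NADPH oxidase, of *Etv4* (−0.20 and 0.30, 0.000562), an ETS transcription factor, of *Ly86* (0.13 and −0.27, 0.000802), a microglial surface protein, and of *Rab27a* (−0.23 and 0.081, 0.000878), a GTPase of vesicle secretion. The estimates of each pair have opposite signs, and the adjusted p of all 5 was 0.9999.

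**Figure D5:**
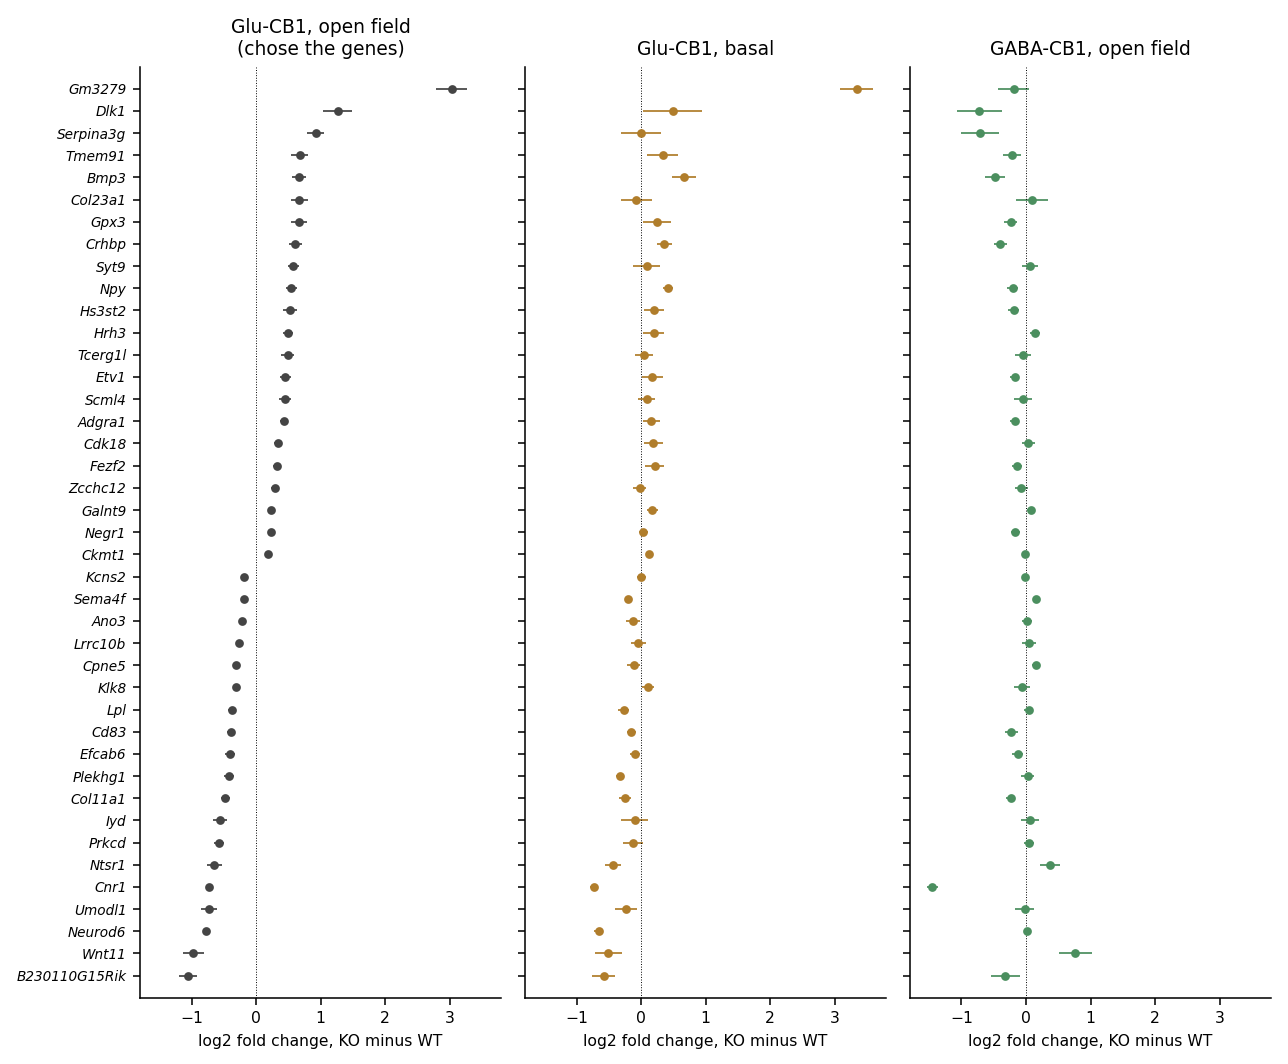
Log2 fold change with SE of Glu-CB1-KO against CB1-WT for the 41 genes called after the open field, in 3 comparisons that share no library: Glu-CB1 after the open field, which chose the genes, Glu-CB1 in the basal state, and GABA-CB1 after the open field. In the basal libraries 37 of 41 have the same sign, and in the GABA-CB1 line 28 of 41 have the opposite sign.

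In the GABA-CB1 line after the open field edgeR called 3 of 15097 genes (0.0199%), and 13.2% had an unadjusted p under 0.05. The 3 genes were *Cnr1* (log2 fold change −1.45 ± 0.086 SE), *Pdlim1* and *Ttc39b* (−0.31, named after its value was seen), and 0 (0%) were higher in GABA-CB1-KO mice. Of the 41 DEGs of the Glu-CB1 line, 28 had the opposite sign there (49.2% of all genes did), 17 of the 22 higher genes (48.4%) and 11 of the 19 lower genes (50%). No gene was called in opposite directions in both lines. The median log2 fold change in the GABA-CB1 line was −0.17 for the higher and 0.020 for the lower DEGs. The difference between the lines was tested as an interaction over the 24 open field libraries, and 87 of 15325 genes passed (0.568%), with 50 more positive (0.326%) and 37 more negative (0.241%) in the Glu-CB1 line, and 10.8% had an unadjusted p under 0.05. Of the 41 DEGs 21 were among them (13 higher, 8 lower). This test holds the contrast that chose the DEGs, so this count is a description. Without CB1-WT replicate 4 of the Glu-CB1 line 50 genes passed, without its Glu-CB1-KO replicate 1 or 3 56, and without its CB1-WT replicate 2 112.

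*Neurod6* differed between the lines (−0.78 ± 0.049 in the Glu-CB1 and 0.020 ± 0.056 in the GABA-CB1 line, interaction adjusted p = 1.12e-06), and so did *Gm3279* (3.03 ± 0.24 in the Glu-CB1 and −0.19 ± 0.24 in the GABA-CB1 line, interaction adjusted p = 9.30e-06). *Cnr1* was lower in both mutants, and less so in the Glu-CB1 line (−0.72 ± 0.055 against −1.45 ± 0.086, interaction adjusted p = 0.000875). Somatostatin interneuron genes had opposite signs: *Crhbp* (0.61 ± 0.098 in the Glu-CB1 and −0.40 ± 0.099 in the GABA-CB1 line, interaction adjusted p = 0.000947), *Sst* (0.44 ± 0.089 in the Glu-CB1 and −0.35 ± 0.064 in the GABA-CB1 line, interaction adjusted p = 0.00108), *Npy* (0.55 and −0.21, adjusted p = 0.00417), *Rab3b* (0.28 and −0.27, adjusted p = 0.00117) and *Tac1* (0.56 and −0.40, adjusted p = 0.0172). Over the 18 markers of this list, 3 were higher in GABA-CB1-KO mice by estimate, with a median log2 fold change of −0.0998. *Pdlim1*, an actin-associated adaptor, had the lowest adjusted p beside *Neurod6* (0.62 ± 0.12 in the Glu-CB1 and −1.07 ± 0.11 in the GABA-CB1 line, interaction adjusted p = 1.12e-06). It was at 2.46, 2.601, 3.13, 2.56 and 2.86 CPM in CB1-WT libraries and 3.27 to 5.21 CPM (median 4.09) in mutants of the Glu-CB1 line, without overlap. Of the channels and receptors, *Kcnn2* (0.18 and −0.17, adjusted p = 0.00152) and *Adra2a* (0.46 and −0.24, adjusted p = 0.0147) passed the interaction, as did *Ldb2* (0.35 and −0.37, adjusted p = 0.00732), *Sptb* (−0.17 and 0.11, adjusted p = 0.00678) and *Slc36a1*, a lysosomal amino acid transporter (0.13 and −0.15, adjusted p = 0.00251). *Dlk1*, *Etv1*, *Fezf2*, *Adgra1*, *Wnt11*, *Prkcd*, *Lpl*, *Negr1*, *Cpne5*, *Sema4f*, *Bmp3*, *Gpx3*, *Hs3st2*, *Tmem91*, *Serpina3g* and *Ntsr1* were the other DEGs that passed it. *Hrh3* (0.49 and 0.14, adjusted p = 0.221), *Klk8* (−0.31 and −0.062, adjusted p = 0.496), *Col11a1* (−0.48 and −0.24, adjusted p = 0.405) and *Syt9* (0.58 and 0.060, adjusted p = 0.151) did not. The study names *Crhbp*, *Npy*, *Sst*, *Rab3b*, *Kcnn2*, *Ldb2* and *Sptb* for opposite changes between the lines in these data. Their interaction p-values are therefore a description. The study also measured *Crhbp*, *Npy*, *Fosb* and *Bdnf* by RT-qPCR after the open field in independent mice. Those values are not part of these data. *Pdlim1* and *Slc36a1* were picked by the p-value of the interaction test itself. All 18 choroid plexus and ependyma markers were higher by estimate in GABA-CB1-KO mice (median log2 fold change 1.13), and their part in the interaction was not tested.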

How the data were processed

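RNA from hippocampal CA tissue had been amplified with NuGEN's Ovation RNA-seq system and sequenced as single-end reads. The authors checked reads with FastQC, trimmed them with bbduk, aligned them to mm10 with STAR 2.6.0a and counted them per gene with featureCounts 1.6.2 on 1 strand, with MultiQC 1.8 for summaries. The deposited values are raw counts of reads per gene, whole numbers without normalization, for 24421 genes in 48 libraries. It is not stated that the kits keep strand, so reads of overlapping genes on opposite strands cannot be told apart. Reads carry no molecular identifiers. Errors are therefore SDs or SEs over mice, of which counting error is a part.

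Groups were taken from the labels. Of the 24421 genes 4527 had no count in the 12 libraries. For Glu-CB1-KO against CB1-WT libraries the quasi-likelihood test of edgeR 4.0.16 was used in R 4.3.3, with TMM normalization and the default filterByExpr, and p-values were adjusted by Benjamini-Hochberg over all genes tested. Genes under 0.05 are called DEGs. SEs were derived from the F statistic, and CPM are TMM-scaled. Interactions with state and with line were tested over 24 libraries each. Principal components used log2 CPM with a prior count of 2, and genotype scores were compared by a two-sided exact permutation test. Scripts were tested on simulated counts. Python 3.11.15 with numpy 2.4.6, pandas 2.3.3 and matplotlib 3.10.9 served for motifs and plots. Upstream sequences are RefSeq's (GRCm38.p6).

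Named are *Cnr1*, *Neurod6* and *Gm3279*, up to 12 genes up and 12 down with the largest change among DEGs, DEGs on a gene list, genes the study names from its open field or RT-qPCR data, DEGs within 5 Mb of *Neurod6* or *Cnr1*, DEGs that pass an interaction with up to 5 further genes of each by p, and up to 3 further members per list by p. The remaining DEGs, the pituitary genes and the other genes within 5 Mb of *Neurod6* were named after their values were seen. The libraries, the gene lists and the tests were chosen with earlier results of these data known. Replicate numbers in the labels do not pair the mice: same-numbered libraries of the genotypes correlated at −0.372 to −0.0121 in their deviations over 5 pairs. No duplicate library was found among 31 pairs within groups (lowest chi-square per degree of freedom 3.66). Alternatives were DESeq2 1.42.0 (also with its independent filtering at 0.05), edgeR's likelihood ratio test, RLE size factors, other filters on low counts, all 48 libraries or the 24 of the line in one fit, animal number over 1000 as a covariate or as a limit, a block for the replicate number, and single libraries left out. Added after seeing the data were the gap at animal number 850, as a covariate and as a split, leaving out CB1-WT replicates 4 and 5, and components without the pituitary hormone genes.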

Additional observations from a re-analysis of the deposited data

Results flagged for a closer look

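Single libraries stood apart from the rest of their genotype by Dixon's criterion in 13 of the 142 groups of libraries checked (71 genes, 2 genotypes). Chance alone gives about 1 in 20. They were *Neurod6* in Glu-CB1-KO replicate 5 (239 CPM), *Neurod6* in CB1-WT replicate 4 (399 CPM), *Tmem91* in Glu-CB1-KO replicate 3 (7.65 CPM), *Gpx3* in Glu-CB1-KO replicate 7 (3.03 CPM), *Ntsr1* in Glu-CB1-KO replicate 3 (4.03 CPM), *Lrrc10b* in Glu-CB1-KO replicate 4 (43.5 CPM), *Ckmt1* in CB1-WT replicate 1 (194 CPM), *Cdk18* in Glu-CB1-KO replicate 3 (21.9 CPM), *Kcnn2* in Glu-CB1-KO replicate 5 (85.05 CPM), *Bdnf* in CB1-WT replicate 5 (44.4 CPM), *Ncf4* in Glu-CB1-KO replicate 1 (0.824 CPM), *Grp* in CB1-WT replicate 1 (15.97 CPM) and *Gad1* in Glu-CB1-KO replicate 5 (424 CPM). Glu-CB1-KO replicates 3 and 5 account for 3 each.

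For 32 of these genes the genotype difference after the open field differed between the Glu-CB1 and the GABA-CB1 line by edgeR's interaction test (adjusted p under 0.05). The difference of the log2 fold changes, Glu-CB1 minus GABA-CB1, was positive for *Cnr1* (0.73), *Gm3279* (3.22), *Dlk1* (1.99), *Serpina3g* (1.64), *Tmem91* (0.90), *Bmp3* (1.15), *Gpx3* (0.90), *Crhbp* (1.01), *Npy* (0.76), *Hs3st2* (0.72), *Etv1* (0.62), *Fezf2* (0.47), *Adgra1* (0.61), *Negr1* (0.40), *Sst* (0.78), *Rab3b* (0.55), *Ldb2* (0.72), *Kcnn2* (0.35), *Pdlim1* (1.69), *Slc36a1* (0.28), *Adra2a* (0.70), *Tac1* (0.96) and *Gad1* (0.25). It was negative for *Neurod6* (−0.80), *Wnt11* (−1.74), *Ntsr1* (−1.02), *Prkcd* (−0.62), *Lpl* (−0.42), *Cpne5* (−0.47), *Sema4f* (−0.34), *Sptb* (−0.28) and *Faah* (−0.22). The genes called after the open field were chosen with 1 of the lines compared, so that their number here is a description. Others were named by the study for opposite changes in these data, or picked by the p-value of this test. *Cnr1* is lower in both mutants, and its positive value says that the fall was smaller in Glu-CB1-KO mice. *Wnt11* and *Dlk1* had the widest gaps beside *Gm3279* and have low levels (0.945 to 1.14 and 2.56 to 6.99 CPM in CB1-WT libraries).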

How the results depend on the processing

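The number of genes called after the open field (41) was 123 with DESeq2 (86 higher, 37 lower), 131 with its independent filtering at 0.05, 111 with edgeR's likelihood ratio test, 16 with animal number over 1000 as a covariate, 14 with the 24 libraries of the line in one fit, 3 in animals numbered under 1000, 10 under 850, 4 over 850, and 4 without CB1-WT replicates 4 and 5. All 41 genes were among those of DESeq2 and of the likelihood ratio test. With the replicate number as a block, which does not pair these mice, it was 3 (*Cnr1*, *Neurod6* and *Gm3279*). It stayed between 28 and 60 with RLE size factors (37), other filters on low counts (41 and 44), all 48 libraries in one fit (28, of which 16 were shared) and animal number over 850 as a covariate (60, all 41 shared). Without 1 library it ran from 14 to 48. The number of genes that differed between lines (87) was 200 with DESeq2, 164 with the likelihood ratio test, 53 with all 48 libraries and 54 with the replicate block; the other alternatives gave 59 to 108, and leaving out 1 library 50 to 112. For the interaction with state it was 0 in every alternative run. The exact permutation p of the first component ran from 0.223 to 0.997 and that of the second from 0.00217 to 0.0195 without 1 library. *Cnr1* and *Neurod6* kept their call in every alternative and left-out fit. *Gm3279* kept its call in every fit that tested it, and the filter of at least 10 counts in every library removed it.

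No called gene changed sign. Genes that were not called and turned sign were *Fosb* (−0.020 with the replicate block, −0.10 over 850, −0.16 without CB1-WT replicates 4 and 5, −0.10 to 0.21 without 1 library), *Tdo2* (0.11 with the block, 0.21 under 1000, 0.14 under 850, −0.26 to 0.050 without 1 library), *Grin2b* (0.12 with the 850 covariate, 0.28 under 1000, 0.76 under 850), *Bdnf* (0.00790 under 1000, 0.074 under 850), *Arc* (0.21 under 1000, 0.070 under 850, −0.23 to 0.17 without 1 library) and *Nr4a2* (−0.083 over 850, −0.21 without CB1-WT replicates 4 and 5, −0.0781 to 0.16 without 1 library). The cause was not tested. At 5 against 7 mice and 27482417 to 32437819 reads, changes of genes near 1 CPM and below are limited by counts.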
